A study of Mus musculus and Rattus norvegicus with 32 samples.

Results

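The natriuretic peptides, their receptors, the protease that activates them and 2 effectors of cyclic GMP (cGMP) were followed across 4 RNA sequencing comparisons of mouse hearts and rat cardiomyocytes. The 9 genes were taken by symbol: Nppa, Nppb, Nppc, Npr1, Npr2, Npr3, Corin, Pde5a and Prkg1. All 9 are among the 55487 genes that each mouse table lists. In the rat table, 8 of them were found among 32883 genes, and rat Prkg1 was not analysed here.

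The study asked what METTL5, the methyltransferase that places N6-methyladenosine on 18S rRNA, does in the heart, and sequenced 8 groups of 4 libraries each. Hearts of 1-month-old METTL5-KO mice, which lack the gene in the whole body, were compared with Ctrl hearts. Hearts of 3-month-old METTL5-cKO mice were compared with Ctrl hearts, without surgery and 4 weeks after transverse aortic constriction (TAC), a band on the aorta that puts the left ventricle under pressure overload. Neonatal rat ventricular cardiomyocytes (NRVMs) carrying the adenovirus AdMETTL5 were compared with NRVMs carrying AdGFP, all of them with phenylephrine (PE), a drug that drives hypertrophic growth. The mice were C57BL/6. In METTL5-cKO mice, Cre under the cardiomyocyte promoter Myh6 (αMHC) removes floxed exons 2 to 4 of METTL5, so that other cells of the heart keep the gene. The labels give the genotype of these hearts as Mettl5-KO and their name as Mettl5-cKO. Whether the controls carried Cre or the floxed allele is not given in the sources used here. The NRVMs came from Sprague Dawley pups of postnatal day 2 and were pre-plated to deplete fibroblasts. They received virus in serum-free medium and then 20 μM PE for 24 h. AdMETTL5 carries the human METTL5 coding sequence.

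Nppa encodes atrial natriuretic peptide and Nppb encodes B-type natriuretic peptide, hormones that heart muscle releases when it is stretched and that are classic markers of hypertrophy. Corin, a membrane protease of cardiomyocytes, cuts the Nppa precursor to its active form. Npr1 is the receptor for both hormones and Npr2 the receptor for C-type natriuretic peptide, the product of Nppc. Both receptors are guanylyl cyclases that make cGMP. Npr3 clears the peptides from the circulation, Prkg1 is the main kinase that cGMP activates, and Pde5a is the phosphodiesterase that breaks cGMP down.

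Total counts per library ranged from 19899033 to 21804907 in mouse hearts and from 14324700 to 18085339 in NRVMs. Levels are given as CPM, counts scaled to a common library size, with library sizes adjusted by edgeR's TMM method within each table. The count of Mettl5, the targeted gene, did not separate the genotypes in any mouse table. It was 5.12 ± 0.665 CPM in Ctrl and 5.97 ± 0.807 in METTL5-KO hearts, 7.36 ± 0.554 and 6.51 ± 0.731 in Ctrl and METTL5-cKO hearts at 3 months, and 6.75 ± 0.753 and 6.59 ± 0.764 after TAC (mean ± SD, n = 4, as for all such values). The adjusted p was 0.973, 0.884 and 0.874. A whole-gene count also holds reads of exons outside the deletion, counts per exon were not analysed here, and the genotypes are those of the labels. In NRVMs, rat Mettl5 was 17.0 ± 0.774 CPM with AdGFP and 21.2 ± 1.76 with AdMETTL5 (adjusted p = 0.00295). Whether reads of the human sequence in the virus entered this count was not tested. Library 1 of the Ctrl group at 1 month stood apart from the others of its group, and the values of Nppa, Nppb, Corin, Npr3 and Pde5a at 1 month are also given without it. In the mouse hearts, the atrial markers Myl7, Sln and Bmp10 were at or near 0, and Myl7 and Bmp10 were at 0 in all 8 libraries after TAC. Of the atrial list of 7 genes, 4 were high enough to be tested. The list summed to 22.7 to 32.4 CPM in Ctrl and 22.7 to 25.7 CPM in METTL5-KO hearts at 1 month. At 3 months the sum was 30.7 to 37.9 CPM in Ctrl and 33.5 to 46.9 CPM in METTL5-cKO hearts. The part of atrial tissue in the Nppa values was not tested. Lung epithelial markers were at 0 in all 32 libraries.

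Nppa (ENSMUSG00000041616, chr4:148000722-148002079, plus strand, GRCm38) and Nppb (ENSMUSG00000029019, chr4:147985788-147987205, plus strand) lie side by side on mouse chromosome 4, with 13516 bases and no complete annotated gene between them. The stretch just upstream of each start is shown because the 2 genes moved together in part of the comparisons and because heart transcription factors are known to act there. For Nppa it is the 250 bases before the start (chr4:148000472-148000721). For Nppb it is a stretch of 30 bases (chr4:147985794-147985823) from 106 to 77 bases before the RefSeq start, which the longer GENCODE transcript includes. The sequences are from RefSeq on GRCm38, 5′ to 3′ on the plus strand, with matches to the searched motifs in capitals.
Nppa: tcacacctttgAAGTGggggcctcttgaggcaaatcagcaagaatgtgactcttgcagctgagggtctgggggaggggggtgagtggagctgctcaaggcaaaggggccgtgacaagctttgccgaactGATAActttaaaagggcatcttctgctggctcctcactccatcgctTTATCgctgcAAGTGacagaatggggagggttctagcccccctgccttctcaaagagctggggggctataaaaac
Nppb: aGGAATGcagctGATAAatcagaGATAAcc
Capitals mark GATAA or its reverse complement TTATC (GATA factors) and AAGTG (NKX2-5) in Nppa, and GATAA and GGAATG, the reverse complement of CATTCC (M-CAT, bound by TEAD factors), in Nppb. Both strands were searched, and no 2 matches overlapped. GATAA was found in 2 places upstream of each peptide gene, 117 to 121 and 71 to 75 bases before the start of Nppa and 90 to 94 and 79 to 83 bases before that of Nppb. At least 1 GATAA was present in 22.6% of 32851 mouse promoters of the same 250 bases, CATTCC in 12.6% and AAGTG in 40.7%. The CArG box of SRF in its strict form (1.47% of promoters) and the AP-1 motif TGANTCA (6.75%) had no exact match in the 250 bases of any of the 9 genes. Looser forms of these motifs were not searched, so sites that differ from them by a letter would be missed. Among the other 7 members, GATAA was found only in Prkg1 and AAGTG only in Pde5a. These matches describe letters and not bound sites.

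Per kilobase of exon, the order of the 9 genes was almost the same in each of the 6 groups of mouse hearts. Nppa was highest, at group means from 80.9 CPM per kilobase in METTL5-KO hearts at 1 month to 5651 in METTL5-cKO hearts after TAC. Nppb was next, from 77.7 to 986 CPM per kilobase. Corin followed at 20.5 to 35.8, then the cyclase receptors Npr2 at 8.38 to 9.60 and Npr1 at 4.08 to 6.89, then Npr3 at 0.860 to 1.54 CPM per kilobase. Pde5a and Prkg1 were lower still, from 0.321 to 0.410 and from 0.323 to 0.627 CPM per kilobase. Pde5a was the higher of the pair at 1 month and Prkg1 in the 4 other groups. The libraries of Nppa and Nppb overlapped in 4 of the 6 groups and lay apart in METTL5-cKO hearts at 3 months and after TAC. Corin, Npr2, Npr1 and Npr3 lay apart from their neighbours in all 6 groups. Nppc was at 0 counts in 23 of the 24 mouse hearts and at 2 counts in Ctrl library 3 at 3 months. For plain counts of reads, a 0 allows for up to 3 at this depth, a limit that need not hold for these estimated counts. In NRVMs Nppc was listed at 0 in 4 libraries and at 7 counts in the other 4, divided evenly between the viruses. It passed the filter on low counts in no table, so 8 members were tested in each mouse comparison and 7 in NRVMs.

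Across the 6 mouse groups, Nppa was lowest in METTL5-KO hearts at 1 month (70.01 ± 15.7 CPM) and Ctrl hearts at 3 months (132 ± 27.2 CPM), whose libraries overlapped. METTL5-cKO hearts at 3 months (283 ± 63.2), Ctrl hearts at 1 month (289 ± 290.5) and Ctrl hearts after TAC (436 ± 100.1) formed a middle range in which neighbours overlapped. METTL5-cKO hearts after TAC stood apart at 4888 ± 1804 CPM (n = 4). For Nppb, METTL5-cKO hearts after TAC (770 ± 164 CPM) also lay apart from all others, and each other neighbouring pair of groups overlapped, from 60.7 ± 17.1 CPM in METTL5-KO hearts at 1 month to 278 ± 104 CPM in Ctrl hearts after TAC. The 3 mouse tables were scaled separately, so levels between them are set side by side here.

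**Figure D1:**
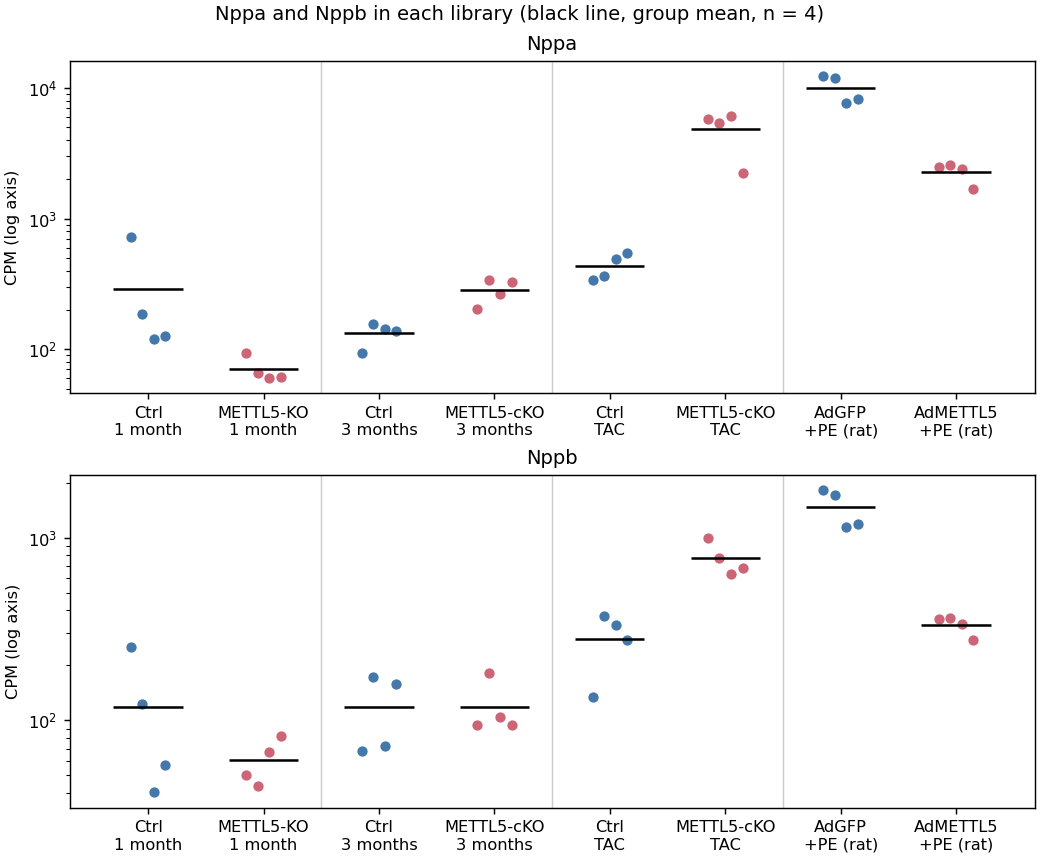
CPM of Nppa (top) and Nppb (bottom) on log axes in each library of the 8 groups, Ctrl or AdGFP in blue and METTL5-KO, METTL5-cKO or AdMETTL5 in red, with the group mean as a black line (n = 4). The METTL5-cKO hearts after TAC lie between 2223 and 6163 CPM for Nppa, above all Ctrl hearts after TAC, and in NRVMs the AdMETTL5 libraries lie below all AdGFP libraries for both genes.

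A gene passed when its adjusted p was under 0.05 in edgeR's quasi-likelihood test, adjusted over all genes of the table (Benjamini-Hochberg). Of the 8 members tested, none passed at 1 month or at 3 months, beside 0.00612% and 0.0732% of all genes tested. At an unadjusted p under 0.05 there was 1 member at 1 month, Nppa, beside 4.57% of all genes, and 2 at 3 months, Nppa and Corin, beside 7.05%. DESeq2 passed 0 and 1 members, the latter Nppa at 3 months. After TAC, 3 of 8 members passed, Nppa and Nppb higher and Npr1 lower in METTL5-cKO hearts, beside 12.7% of all genes (6.57% higher and 6.10% lower). In NRVMs, 5 of 7 members passed, Corin and Pde5a higher and Nppa, Nppb and Npr2 lower with AdMETTL5, beside 52.8% of all genes (27.1% higher and 25.7% lower). The libraries are labelled as replicates of a group without saying that each is a separate mouse or culture. The p-values therefore set each group difference against the spread between these libraries, whatever its source.

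**Figure D2:**
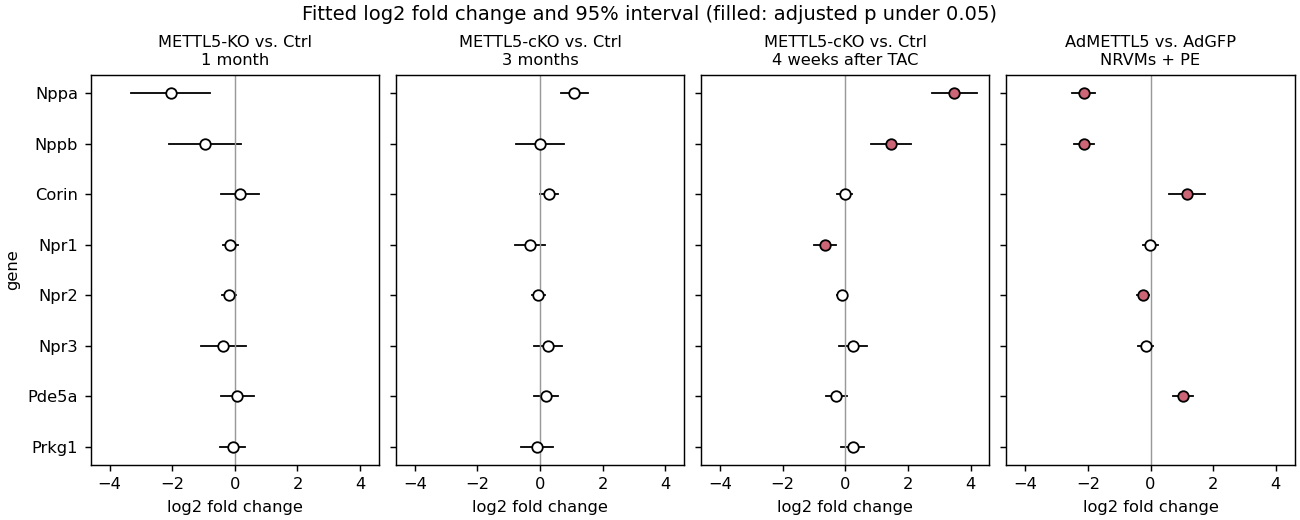
Log2 fold change (x axis) of the 8 tested members (rows) in the 4 comparisons, with 95% intervals as lines and filled points for an adjusted p under 0.05. Nppa reached 3.49 in METTL5-cKO hearts after TAC and -2.14 with AdMETTL5 in NRVMs, while Npr2 lay between -0.25 and -0.05, with a filled point in NRVMs, and Prkg1 was not analysed in NRVMs.

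At 1 month, Nppa was lower in METTL5-KO than in Ctrl hearts in each library, but with a wide spread in the controls. Ctrl hearts had 723, 187, 120.5 and 126.5 CPM and METTL5-KO hearts 93.2, 66.0, 59.8 and 61.0 CPM. The groups did not overlap, as for 3.01% of all genes tested, and Ctrl library 1 was far above the rest. The log2 fold change was -2.05 (SE, the standard error, 0.563; adjusted p = 0.973), and the exact two-sided permutation test gave p = 0.0286, the smallest that 4 against 4 libraries allow. Without Ctrl library 1, the log2 fold change was -1.04 (adjusted p = 0.572). In bulk tissue, fewer cells of a type and less RNA per cell cannot be told apart.

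Nppb at 1 month had 251, 122, 40.3 and 56.8 CPM in Ctrl and 50.2, 43.9, 66.9 and 81.8 CPM in METTL5-KO hearts, and the groups overlapped. Ctrl libraries 1 and 2 were the high ones, as for Nppa. For Nppb the log2 fold change came to -0.95 (SE 0.508, adjusted p = 0.973), and to -0.27 without Ctrl library 1 (adjusted p = 0.913). Beside these values, Ctrl library 1 had summed macrophage markers of 300.1 CPM, against 140 to 209 in the other Ctrl hearts, and summed cardiomyocyte markers of 24359 CPM, against 28967 to 38783. The part of these differences in the peptide values was not tested.

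At 3 months the direction of the Nppa values was the opposite, with higher values in METTL5-cKO hearts. Ctrl hearts had 93.0, 156, 142 and 137 CPM and METTL5-cKO hearts 202, 338, 264 and 328 CPM, so that the lowest METTL5-cKO heart lay above the highest Ctrl heart. Such a gap in either direction was found for 4.23% of all genes tested. This gave a log2 fold change of 1.10 (SE 0.196, 95% interval 0.66 to 1.54), with an adjusted p of 0.159 in edgeR and 2.57e-05 in DESeq2, and an exact permutation p of 0.0286. Summed cardiomyocyte markers were 47657 to 51400 CPM in Ctrl and 43274 to 47521 CPM in METTL5-cKO hearts, and fibroblast markers 419 to 565.5 and 517 to 762 CPM, with no gene of either list past the threshold. Their part in the Nppa value was not tested. Nppb did not follow, with 67.6, 173, 72.1 and 159 CPM in Ctrl and 94.7, 182, 104 and 94.7 CPM in METTL5-cKO hearts. The groups overlapped, and METTL5-cKO library 2 was far above the rest of its group. The log2 fold change of Nppb was 0.01 (SE 0.342, 95% interval -0.75 to 0.78), and -0.27 without that library.

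After TAC, both peptide genes rose in METTL5-cKO hearts, Nppa far more than Nppb. Nppa had 338, 366, 494 and 546 CPM in Ctrl hearts and 5769, 5398, 6163 and 2223 CPM in METTL5-cKO hearts. METTL5-cKO library 4 was the lowest of its group but far above the highest control. The log2 fold change was 3.49 (SE 0.324, adjusted p = 0.00158), an 11.2-fold difference with a 95% interval of 2.76 to 4.21 in log2 units, and no library left out ended the call. Nppb had 133, 372, 331 and 274 CPM in Ctrl and 999.5, 771, 629 and 680.1 CPM in METTL5-cKO hearts. Again the groups did not overlap, as for 18.6% of all genes tested. For Nppb the log2 fold change came to 1.47 (SE 0.285, adjusted p = 0.0157), and without Ctrl library 4 the adjusted p was 0.0545.

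Markers of other cells also differed between the hearts after TAC, where 6.57% of all genes were higher and 6.10% lower. Summed fibroblast markers were 578 to 767 CPM in Ctrl hearts and 2987, 2064, 2013 and 924 CPM in METTL5-cKO libraries 1 to 4, with 7 of 8 genes of the list higher. Summed cardiomyocyte markers were 47613 to 52372 CPM in Ctrl hearts and 37221, 35518, 35542 and 45458 CPM in METTL5-cKO hearts, with 3 of 11 genes lower. METTL5-cKO library 4, lowest in Nppa, was nearest to the controls in both sums, while libraries 1 to 3 did not follow the order of their Nppa values. Macrophage markers summed to 210.5 to 281 CPM in Ctrl and 285 to 376 CPM in METTL5-cKO hearts, with 3 of 7 higher. Of the atrial list, 1 of 4 genes tested was higher, Dkk3, and the sum was 25.2 to 26.4 CPM in Ctrl and 27.8 to 30.7 CPM in METTL5-cKO hearts. The part of these cell types in the peptide values was not tested.

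The hearts after TAC were also set against those of 3 months in one fit of all 16 libraries. These tables hold no sham-operated hearts, so surgery and table cannot be told apart, and the contrasts share libraries with those above. In Ctrl hearts, 1 of 8 members passed, beside 0.516% of all genes. Nppa was higher after TAC by 1.72 on the log2 scale (SE 0.279, adjusted p = 0.0173), and the call was lost without Ctrl library 4 at 3 months or without Ctrl library 3 or 4 after TAC, with adjusted p from 0.0608 to 0.0705. Nppb differed by 1.24 (SE 0.349, adjusted p = 0.104, and 0.0353 in DESeq2). In METTL5-cKO hearts, 3 of 8 members passed, beside 19.1% of all genes. Nppa was higher by 4.13 (SE 0.308, adjusted p = 2.38e-06) and Nppb by 2.71 (SE 0.366, adjusted p = 2.09e-04), while Corin was lower by 0.61 on the log2 scale.

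The difference between the genotype effects at TAC and at 3 months was 2.41 log2 units for Nppa (SE 0.389, 95% interval 1.58 to 3.23). With an adjusted p of 0.0935 it did not pass in edgeR, where 0.00586% of all genes passed, and no other member did. DESeq2 gave an adjusted p of 6.18e-07 for Nppa, and edgeR without METTL5-cKO library 4 after TAC gave 2.64 with an adjusted p of 2.10e-04. For Nppb the difference was 1.47 (SE 0.489, adjusted p = 0.244). At an unadjusted p under 0.05 these 2 genes were the only members, beside 11.8% of all genes.

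In NRVMs with PE, both peptide genes fell with AdMETTL5, with nearly equal log2 fold changes. Nppa (ENSRNOG00000008176) had 12349, 11945, 7717 and 8195 CPM with AdGFP and 2489, 2571, 2394 and 1682 CPM with AdMETTL5. Nppb (ENSRNOG00000008141) had 1814, 1699, 1140 and 1192 CPM with AdGFP and 358, 363, 338 and 276 CPM with AdMETTL5. AdGFP libraries 1 and 2 were high for both genes and AdMETTL5 library 4 was lowest for both, and the groups did not overlap, as for 48.4% of all genes tested. The log2 fold change was -2.14 for Nppa (SE 0.173, adjusted p = 1.09e-06) and -2.13 for Nppb (SE 0.149, adjusted p = 3.57e-07). Cardiomyocyte markers moved in the same direction by less, with 11 of 11 genes lower, where 25.7% of all genes were lower. Their sum was 36835 to 46571 CPM with AdGFP and 15892 to 17718 CPM with AdMETTL5, a log2 ratio of -1.34. Fibroblast markers were lower for 6 of 7 genes tested, from 11531 to 12144 CPM in sum with AdGFP to 9112 to 10042 CPM with AdMETTL5. Their part in the peptide values was not tested. NRVMs also held transcripts of the atrial list, with Myl7 at 33.7 CPM and Myl4 at 193 CPM with AdGFP. The part of atrial cells in these transcripts was not tested. Of the atrial list, 5 of 6 genes tested were lower, and its sum went from 472.5 to 517 CPM with AdGFP to 320 to 331 CPM with AdMETTL5.

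The ratio of Nppa to Nppb within a library does not depend on scaling between libraries. In NRVMs it was a log2 of 2.78 ± 0.0242 with AdGFP and 2.76 ± 0.105 with AdMETTL5 (n = 4), a difference of -0.02 (exact two-sided permutation p = 0.971). After TAC it was 1.34, -0.02, 0.58 and 0.99 in Ctrl and 2.53, 2.81, 3.29 and 1.71 in METTL5-cKO hearts, so that Nppa outran Nppb in each METTL5-cKO heart relative to each control. The difference was 1.86 log2 units (exact permutation p = 0.0286, adjusted p = 0.114 over the 8 ratios tested). At 3 months it was 0.27 ± 0.562 in Ctrl and 1.28 ± 0.386 in METTL5-cKO hearts, and at 1 month 1.22 ± 0.445 in Ctrl and 0.22 ± 0.617 in METTL5-KO hearts, with an exact permutation p of 0.0571 and overlapping groups in both. None of the 8 ratios passed after adjustment.

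**Figure D3:**
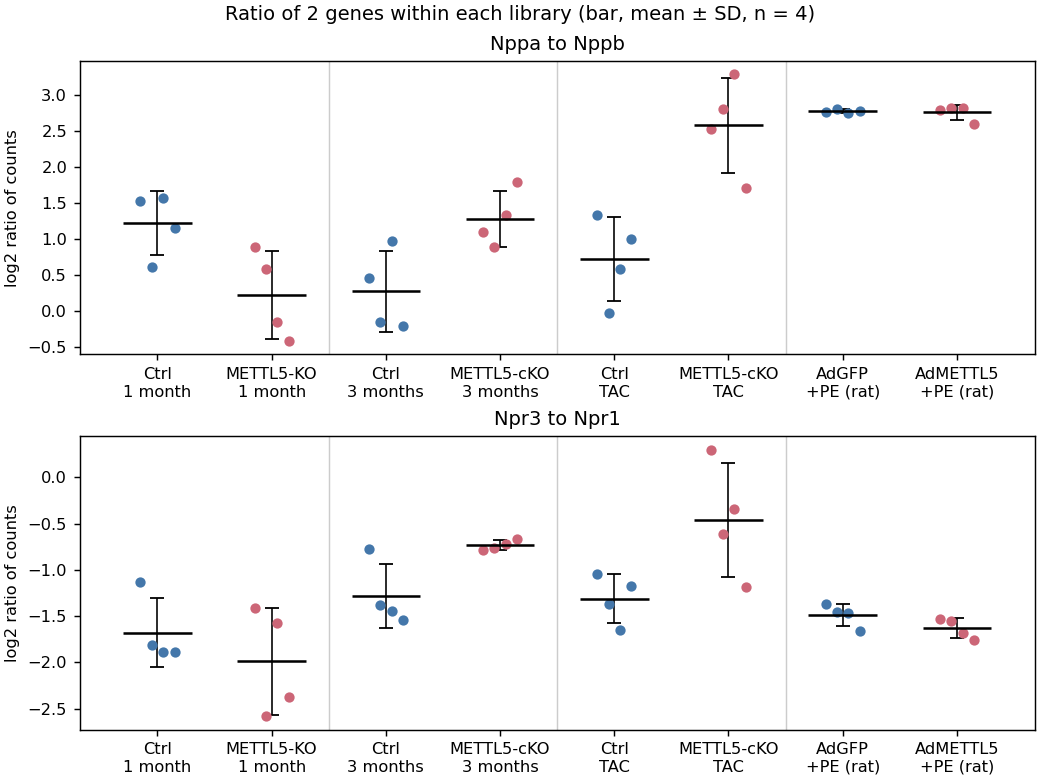
Log2 ratio of the counts of Nppa to Nppb (top) and of Npr3 to Npr1 (bottom) in each library of the 8 groups, with mean ± SD as black bars (n = 4). The Nppa to Nppb ratio of the NRVMs stays near 2.8 with either virus, while METTL5-cKO hearts after TAC lie between 1.71 and 3.29, above all Ctrl hearts after TAC.

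Corin (ENSMUSG00000005220, chr5:72300025-72504473, minus strand, GRCm38), the protease that activates the Nppa product, did not rise with Nppa after TAC. Ctrl hearts had 132, 136, 105 and 134 CPM and METTL5-cKO hearts 109.8, 128, 122 and 142 CPM, in fully overlapping ranges. Corin had a log2 fold change of -0.01 (SE 0.108, 95% interval -0.26 to 0.23), with a sign that turned in DESeq2 and with scaling by library size alone. At 3 months it had 158 ± 21.8 CPM in Ctrl and 193.5 ± 25.9 in METTL5-cKO hearts (log2 fold change 0.29, SE 0.127, adjusted p = 0.701). The fall of 0.61 from METTL5-cKO hearts at 3 months to those after TAC (SE 0.123, adjusted p = 0.00292) left the 2 groups apart, and in Ctrl hearts the value was -0.33 (adjusted p = 0.187), with groups that also did not overlap. Among all genes, 19.8% and 11.7% had groups apart in these contrasts.

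In NRVMs, Corin was scarce and rose with AdMETTL5 while Nppa fell. It had 5.63, 3.85, 9.51 and 11.6 CPM with AdGFP and 13.3, 16.3, 16.02 and 22.6 CPM with AdMETTL5. AdGFP libraries 1 and 2 were the low ones of their group. With each library left out, the log2 fold change of Corin was from 0.94 to 1.43. The lowest AdMETTL5 library lay above the highest AdGFP library. Such a gap in either direction was found for 48.4% of all genes tested in NRVMs. In log2 units Corin rose by 1.16 (SE 0.265, adjusted p = 0.00291). At 1 month, Ctrl library 1 had 186 CPM of Corin, against 66.9 to 102.5 in the other Ctrl hearts and 117 to 135 in METTL5-KO hearts. The fold change there was 0.17 in log2 units (SE 0.271), and 0.54 without that library (adjusted p = 0.663).

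Npr1 (ENSMUSG00000027931, chr3:90450591-90465866, minus strand, GRCm38), the receptor of both hormones, was lower in METTL5-cKO than in Ctrl hearts after TAC, where its ligands were higher. It had 24.1, 31.5, 33.8 and 33.4 CPM in Ctrl and 16.8, 17.0, 18.6 and 25.6 CPM in METTL5-cKO hearts. METTL5-cKO library 4 lay within the range of the controls and the other 3 below it. Npr1 had a log2 fold change of -0.65 (SE 0.157, 95% interval -1.01 to -0.30, adjusted p = 0.0292), and the exact permutation test gave p = 0.0571. The call was lost with no filter on low counts (adjusted p = 0.0649) and without any 1 of 6 libraries (adjusted p from 0.0711 to 0.0910). Without METTL5-cKO library 4 it was -0.80 (adjusted p = 0.00283). Endothelial markers, whose cells are known to carry Npr1, also went down, with 5 of 8 genes lower, beside 6.10% of all genes. Their sum was 1282, 1348, 1525 and 1335 CPM in Ctrl and 848.5, 983.5, 864 and 1170 CPM in METTL5-cKO hearts. In both measures METTL5-cKO library 4 was the nearest to the controls, and the part of these cells in the Npr1 value was not tested.

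At the other stages Npr1 did not pass. Its log2 fold change was -0.14 (SE 0.108) at 1 month and -0.33 (SE 0.212) at 3 months, with overlapping groups. From 3 months to TAC, Npr1 differed by -0.18 in METTL5-cKO hearts (SE 0.199, adjusted p = 0.569). In Ctrl hearts the value was 0.12 (SE 0.196, adjusted p = 0.771), and groups overlapped in both. The difference between the genotype effects at TAC and at 3 months was -0.31 (SE 0.279, adjusted p = 0.727). Endothelial sums were 1606 to 1722 CPM in Ctrl and 1229 to 1570 CPM in METTL5-KO hearts at 1 month, with no gene of the list past the threshold. At 3 months they were 841 to 1515 and 757.5 to 1196 CPM, and overlapped. Their part in the Npr1 values was not tested. In NRVMs, where Npr1 had 21.6 ± 3.37 CPM with AdGFP and 21.6 ± 2.17 with AdMETTL5 (n = 4), the 95% interval of the log2 fold change was -0.24 to 0.23. With scaling by library size alone, which moved the median log2 fold change of all genes to 0.13, it was 0.13.

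Npr2 (ENSMUSG00000028469), the cyclase receptor for the Nppc product, had group means in mouse hearts from 39.1 to 44.8 CPM. Its log2 fold changes were -0.19 at 1 month, -0.05 at 3 months and -0.11 after TAC (0.034 with scaling by library size alone), with standard errors from 0.0734 to 0.0949. In NRVMs it had 35.0, 35.0, 41.4 and 41.8 CPM with AdGFP and 30.8, 32.5, 28.6 and 36.9 CPM with AdMETTL5, with overlapping groups. The log2 fold change of -0.25 (SE 0.0875) had an adjusted p of 0.0303, which became 0.371 with scaling by library size alone and 0.0564 with no filter on low counts. It was also over the threshold without any 1 of 5 libraries, from 0.0581 to 0.0979.

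Npr3 (ENSMUSG00000022206), the clearance receptor, passed in no comparison. In NRVMs its log2 fold change was -0.15 (SE 0.107). In hearts it was -0.37 (SE 0.318) at 1 month, 0.25 (SE 0.200) at 3 months and 0.24 (SE 0.200) with TAC. Single libraries carried much of these values, which were -0.16 without Ctrl library 1 at 1 month, 0.043 without METTL5-cKO library 4 at 3 months and 0.0095 without METTL5-cKO library 1 after TAC. The 95% interval after TAC, -0.21 to 0.68, leaves room for a change in either direction. METTL5-cKO library 1 after TAC, at 20.8 CPM, was above the other 3, at 11.1 to 14.7 CPM. The endocardium list, which holds Npr3 itself, summed to 70.9 to 81.9 CPM in Ctrl and 55.0 to 69.5 CPM in METTL5-KO hearts at 1 month, with none of its 6 genes past the threshold, and its part was not tested. The ratio of Npr3 to Npr1 was a log2 of -1.31 ± 0.265 in Ctrl and -0.46 ± 0.616 in METTL5-cKO hearts after TAC (n = 4), a difference of 0.85 with overlapping groups (exact permutation p = 0.0857, adjusted p = 0.137).

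**Figure D4:**
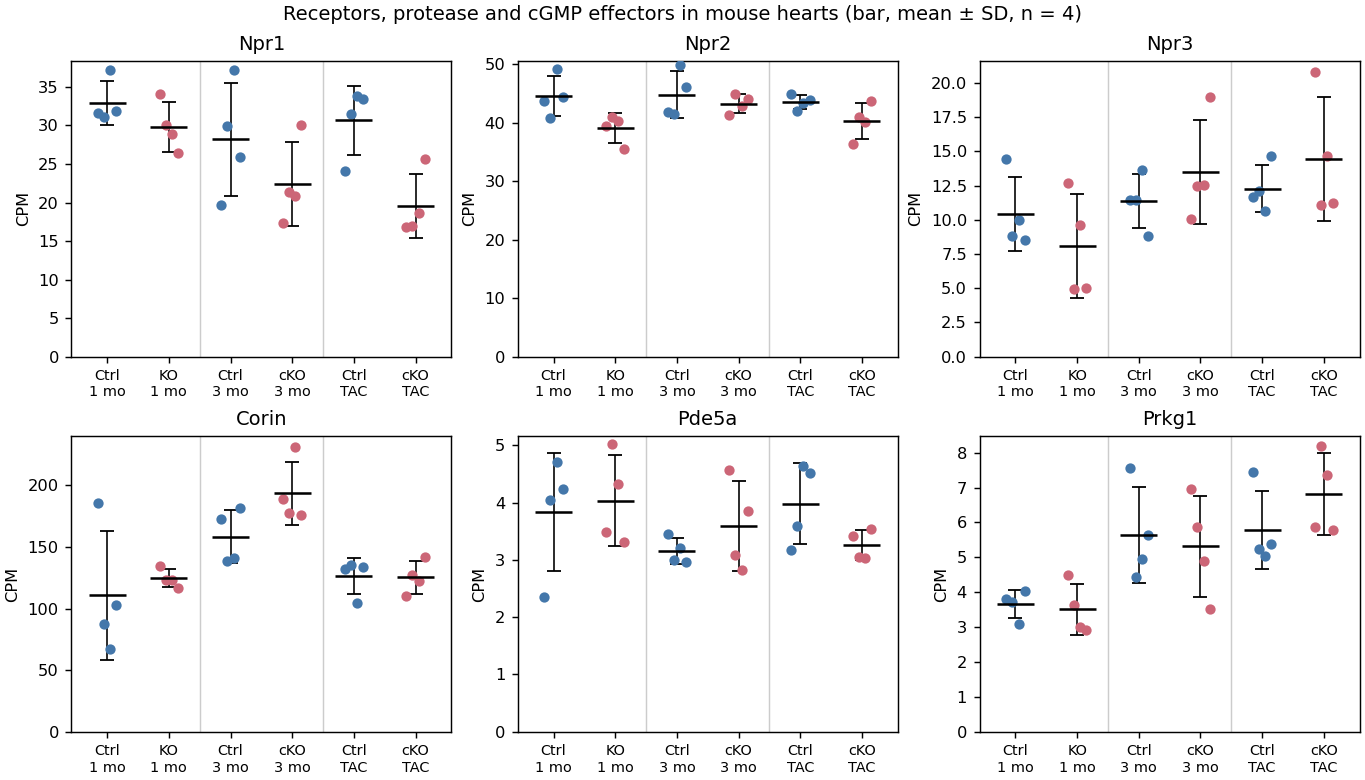
CPM of the receptors Npr1, Npr2 and Npr3, the protease Corin and the cGMP effectors Pde5a and Prkg1 in each mouse heart (points), with mean ± SD (bars, n = 4) for Ctrl (blue) and METTL5-KO or METTL5-cKO (red) at 1 month, 3 months and after TAC. By group mean, Npr1 is lowest in METTL5-cKO hearts after TAC (16.8 to 25.6 CPM) and Corin is highest in METTL5-cKO hearts at 3 months (176 to 231 CPM).

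Pde5a (ENSMUSG00000053965), the enzyme that hydrolyses cGMP, was rare in mouse hearts and rose in NRVMs with AdMETTL5. In NRVMs it had 5.10, 5.29, 8.46 and 7.04 CPM with AdGFP and 12.7, 11.2, 14.4 and 14.8 CPM with AdMETTL5. AdGFP libraries 1 and 2 were the low ones of their group. The groups did not overlap, as for 48.4% of all genes tested. In log2 units Pde5a rose by 1.03 (SE 0.151, adjusted p = 1.21e-04). In mouse hearts all 24 libraries lay between 2.35 and 5.03 CPM. The log2 fold changes were 0.08 (SE 0.233) at 1 month (-0.097 without Ctrl library 1), 0.18 (0.169) at 3 months and -0.29 (0.148) after TAC, the last with an adjusted p of 0.220. Prkg1 (ENSMUSG00000052920), the cGMP-dependent kinase, had 2.92 to 8.20 CPM in mouse hearts, with log2 fold changes of -0.06, -0.09 and 0.24 and standard errors of 0.177, 0.228 and 0.163. At 1 month the libraries held 60 to 101 counts of Pde5a and 51 to 98 counts of Prkg1, which limits the precision of both.

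Of 62 other genes of the pathway, 51 were tested at 1 month, 52 at 3 months and 51 after TAC. None passed at 1 or 3 months in edgeR, and DESeq2 passed 1 at 1 month, Rgs2. After TAC, 5 were higher and 4 lower in METTL5-cKO hearts, 17.6% of those tested beside 12.7% of all genes. Scaling by library size alone, which moved the median of all genes to 0.14, gave 10 higher and 4 lower. Of peptide processing genes, 1 of 6 rose and 1 fell. Pam, which amidates peptides and is a known companion of Nppa in secretory granules, rose from 228 ± 41.4 to 456 ± 126 CPM (n = 4), that is by 1.00 in log2 units (adjusted p = 0.0194). Mme, the protease neprilysin that degrades natriuretic peptides, fell from 3.35 ± 1.33 to 1.12 ± 0.604 CPM, by 1.58 on the log2 scale (adjusted p = 0.0385).

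Of 18 transcription factors known from the peptide promoters, 3 rose after TAC and none fell, beside 6.57% higher and 6.10% lower among all genes. Tbx20 and Hand2, factors of heart development, had log2 fold changes of 0.73 and 0.66, and the immediate early factor Egr1 had 0.95 (adjusted p from 0.0256 to 0.0405). Of the factors whose motifs are shown above, Gata4 had a log2 fold change of 0.30 (adjusted p = 0.0505), Nkx2-5 of 0.12 (adjusted p = 0.372) and Tead1 of 0.39 (adjusted p = 0.0569). With scaling by library size alone these 3 passed, with adjusted p from 0.0271 to 0.0398. They are given for their motifs, after their values were seen. Pde1a, a phosphodiesterase activated by calcium, rose by 0.85 on the log2 scale (adjusted p = 0.0101). Nos2, Kcnmb1, a subunit of the cGMP-regulated BK channel, and Cnga3, a cGMP-gated channel, fell by 0.60, 0.68 and 0.96 on the log2 scale (adjusted p from 0.0171 to 0.0292), and the last 2 did not pass in DESeq2 (0.0803 and 0.0526).

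In NRVMs, 15 of 49 pathway genes tested were higher and 15 lower with AdMETTL5, 61.2% beside 52.8% of all genes, and scaling by library size alone gave 25 higher and 13 lower. Among the factors of the peptide promoters, 8 of 18 fell and 4 rose. Gata4 fell from 590.1 ± 37.9 to 296 ± 12.6 CPM (n = 4), a log2 ratio of -0.997 (adjusted p = 6.19e-08). Tbx20, Egr1 and Srf fell, with log2 fold changes of -1.17, -1.397 and -0.46, while Mef2c and Hand2 rose, with 0.60 and 0.70. Nkx2-5 had -0.58 (adjusted p = 8.89e-06) and Tead1 0.04 (adjusted p = 0.725), both given for their motifs after their values were seen.

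Of the cGMP kinase and its substrates, 5 of 12 genes tested were higher and 2 lower in NRVMs, where 27.1% of all genes were higher and 25.7% lower. Mrvi1 (also called Irag1), the substrate through which Prkg1 restrains calcium release, rose from 10.96 ± 1.07 to 62.5 ± 8.14 CPM (n = 4), that is by 2.51 in log2 units (SE 0.102, adjusted p = 1.17e-08). Pln, the brake on the calcium pump of cardiomyocytes and also a gene of the cardiomyocyte list, fell from 2265 ± 88.7 to 1162 ± 65.2 CPM (log2 fold change -0.96). Of the cyclases and NO synthases, 3 of 5 rose and none fell, where 52.8% of all genes passed. Nos2, the inducible NO synthase, rose from 9.86 ± 2.15 to 32.6 ± 3.54 CPM (log2 fold change 1.72, adjusted p = 6.31e-07), and the soluble cyclase subunits Gucy1a1 and Gucy1b1 had 0.21 and 0.26. Of the other phosphodiesterases and cGMP pumps, 4 of 8 fell, Pde1a, Pde2a, Pde3a and Pde9a, with log2 fold changes between -0.41 and -0.57 (Pde1a did not pass with library size alone), and 1 rose, the pump Abcc5, with 0.29. Pcsk6, a convertase known to activate Corin, rose by 0.45 (adjusted p = 1.96e-06), Mme by 0.86, and Dpp4 had -1.44. Gucy1a1, Gucy1b1, the 4 phosphodiesterases, Abcc5, Mme and Dpp4 were named here after their values were seen.

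**Figure D5:**
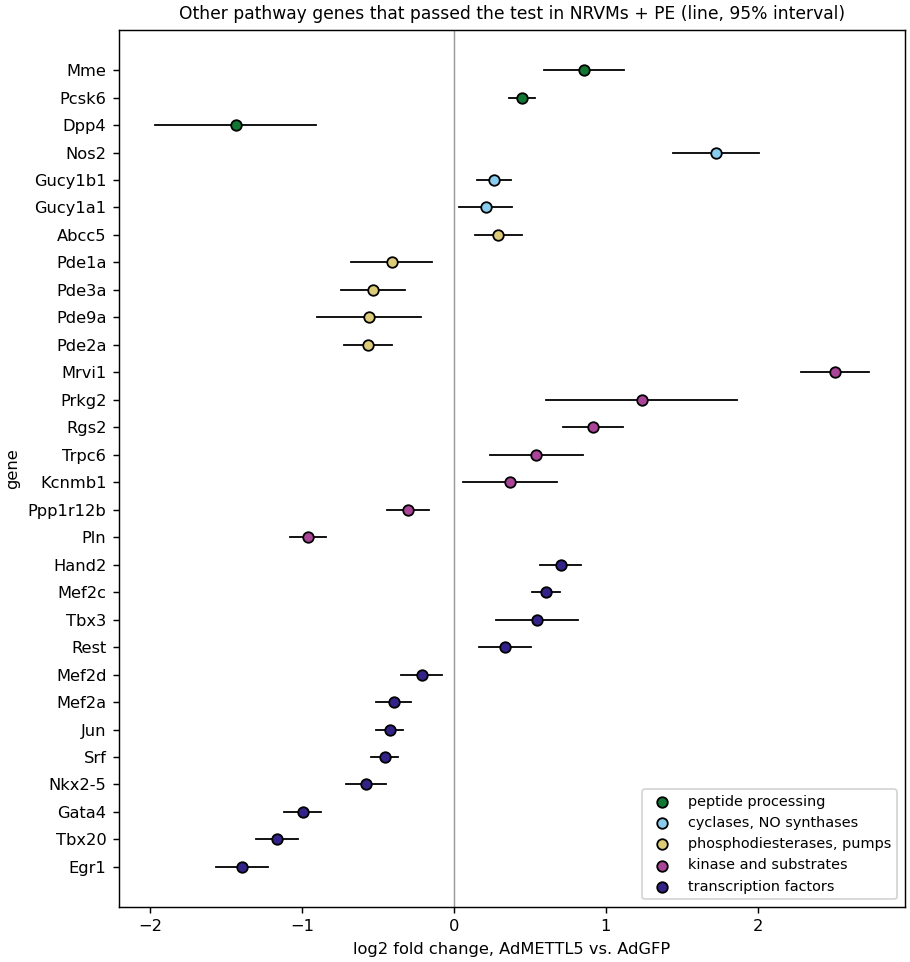
Log2 fold change of AdMETTL5 against AdGFP (x axis) with 95% intervals for the 30 other pathway genes (rows) that passed the test in NRVMs, coloured by their role. Mrvi1 is highest at 2.51 and Dpp4 lowest at -1.44, and the points divide into 15 on either side of 0.

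Over the 24 mouse hearts, the genes with the pattern most like that of Nppa were Ccn5, Gdf15 and Ccn2, by the root mean square difference of centred log2 CPM among 15543 genes. The differences were 0.816, 0.860 and 0.860, where the median gene had 1.98 and Nppb, in place 7, had 0.932. Ccn2 and Ccn5 are secreted matrix-associated proteins and Gdf15 is a stress-induced cytokine. Their log2 fold changes after TAC were 2.84, 3.91 and 2.65, which describe hearts that also entered the choice of these genes. Most like Nppb were Tnfrsf12a, Ankrd1 and Cnksr1, with differences of 0.571, 0.583 and 0.609 and log2 fold changes after TAC of 0.92, 1.81 and 1.09. Tnfrsf12a is a receptor of the TNF family and Ankrd1 a stress-responsive protein of cardiomyocytes. The 24 points share 3 tables, and likeness is a description of these libraries.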

How the data were processed

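RNA was sequenced as 24 mouse heart and 8 NRVM libraries, 4 libraries in each of 8 groups taken from the labels. The authors aligned reads with HISAT2 2.0.4 to GRCm38 or Rnor_6.0 and made estimated counts per gene with StringTie 2.1.4, versions per the labels. The deposited estimated counts are whole numbers, not scaled between libraries, so that rounding left them as they were. The analysis plan assumed plain counts. Whether counting used strand is not given in the sources used here, so Nppa, Npr1, Npr2, Npr3, Corin, Pde5a and Prkg1 cannot be told apart from reads of annotated genes on the other strand that overlap them, and Corin also overlaps 3 small genes on its own strand.

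Each table was fitted whole in edgeR 4.0.16 (R 4.3.3): TMM, filterByExpr (minimum count 10, minimum total 15), glmQLFit and glmQLFTest, with Benjamini-Hochberg adjustment over all genes tested. Depth and 4 libraries per group gave a median standard error, over all genes, from 0.0807 in NRVMs to 0.175 at 1 month. For each member, mean log2 CPM (prior count 2) was also tested by exact permutation, two-sided, over 70 labelings. Libraries are numbered by the label at 1 month and for AdMETTL5, and elsewhere by the ascending numbers that their columns carry. No 2 libraries agreed within counting noise (closest chi-square 2.16 per degree of freedom). Alternatives were DESeq2 1.42.0, its size factors, library size alone, no filter, at least 10 counts in every library, other call rules, leaving out each library and, at 1 month, the replicate block. The fit was tested on simulated data. Positions and exon lengths come from GENCODE M21 and promoters from RefSeq, both on GRCm38. All 9 members matched.

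Named genes were the members, Mettl5, up to 10 pathway genes per comparison with the smallest adjusted p among those that passed, and the 3 genes most like Nppa and Nppb. The members, lists and motifs were chosen with earlier results of these data known. The si-METTL5 libraries were not analysed here.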

Additional observations from a re-analysis of the deposited data

Results flagged for a closer look

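Of 70 sets of 4 libraries, each 1 member in 1 group, 7 held a library farther from the other 3 than Dixon's 95% limit allows. For normal values chance gives about 1 in 20, which need not hold for these CPM. Sets of Nppc at 0 in all 4 libraries could not be flagged. Nppa in Ctrl library 1 at 1 month (723 CPM) was far above its group, and the log2 fold change of Nppa without that library is -1.04. Npr1 in Ctrl library 3 at 1 month was high at 37.2 CPM. Nppb in METTL5-cKO library 2 at 3 months was high at 182 CPM. Nppc in Ctrl library 3 at 3 months stood at 0.0943 CPM, which is 2 counts, against 0 in the other 3. Corin in Ctrl library 3 after TAC was low at 105 CPM and Prkg1 in Ctrl library 1 after TAC was high at 7.44 CPM. Npr1 in AdMETTL5 library 4 was high at 24.8 CPM.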

How the results depend on the processing

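Nppa and Nppb in NRVMs, Corin and Pde5a in NRVMs, Nppa after TAC, and Nppa, Nppb and Corin between METTL5-cKO hearts at 3 months and after TAC kept their direction and their call under each alternative scaling and test run and with each library left out. Other filters on low counts, which were run within the 4 tables and not for the fit of 16 libraries, changed none of the first 5. With an unadjusted p, 1 member passed at 1 month and 2 at 3 months. DESeq2 passed 1 member at 3 months, 2 for TAC against 3 months in Ctrl hearts and 1 for the genotype by TAC interaction, and 1 pathway gene at 1 month. Library size alone passed 14 pathway genes after TAC. With each library left out, 1 to 3 members passed after TAC (1 without Ctrl library 4), 4 to 5 in NRVMs, 0 to 1 for TAC against 3 months in Ctrl hearts and 0 to 1 for the interaction (1 without METTL5-cKO library 4 after TAC). The log2 difference of the Nppa to Nppb ratio in NRVMs was then from -0.038 to 0.034, with a positive sign only without AdMETTL5 library 4. After TAC, Nppb and Npr1 did not pass without Ctrl library 4. The cause of these changes was not tested.

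Reversed signs came only from members that had not passed. At 1 month, leaving out libraries gave log2 fold changes from -0.097 to 0.19 for Pde5a, -0.0083 to 0.54 for Corin and -0.20 to 0.018 for Prkg1. At 3 months they were from -0.27 to 0.26 for Nppb, -0.25 to 0.084 for Prkg1 and -0.086 to 0.0039 for Npr2. After TAC, Corin was from -0.086 to 0.045, 0.0023 in DESeq2, 0.0015 with no filter and 0.13 with library size alone, which gave 0.034 for Npr2. In NRVMs, Npr1 was from -0.084 to 0.067, and 0.13 with library size alone. For TAC against 3 months in Ctrl hearts, Prkg1 was from -0.10 to 0.21 (-0.018 with library size alone), Npr1 from -0.015 to 0.29 and Npr2 from -0.082 to 0.012. In METTL5-cKO hearts, Npr3 was from -0.11 to 0.32 and Pde5a from -0.22 to 0.017. For the interaction, Npr3 was from -0.22 to 0.20 (-0.0054 with DESeq2 size factors) and Npr2 from -0.098 to 0.00093 (0.034 with library size alone).

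The labels share replicate numbers between genotypes at 1 month. Libraries with the same number deviated from their group means with correlations of 0.239, 0.120, -0.107 and 0.0782, and 1 of the 4 numbers correlated best with itself, so the numbers were not taken to pair the mice. With the replicate block, 0 members passed and the log2 fold change of Nppa was -1.61 (adjusted p = 0.916). Counts of Nppc were too low for it to be tested in any table. Whether depth or absence of its transcript accounts for this was not tested.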
